A study of Mus musculus with 10 samples.

Results

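Cholinergic transmission genes were followed in RNA-seq of the mouse spinal cord through 10 genes, chosen by symbol for their part in the synthesis, vesicular loading, uptake, breakdown and reception of acetylcholine. All 10 were listed among the 25232 genes of the deposited table. The samples were 5 wild type and 5 SOD1G93A females, all 90 days old and labelled C57BL/6 (C57BL/6J in the methods), with the spinal cord as the labelled tissue and its lumbar region as the part named in the methods. SOD1G93A mice carry a human *SOD1* transgene at high copy number, with a mutation found in familial ALS, and their littermates without it were the controls. That transgene is driven by the human *SOD1* promoter and is therefore active in most cell types, not in motor neurons alone. The deposited table gives each gene a base mean, which is the mean over all 10 libraries of read counts divided by size factors, and it holds no value of a single library or genotype. Every level below is therefore the authors' mean over WT and SOD1G93A mice together, without an SD, and no difference between the genotypes is given. The rest of the table is the authors' own genotype comparison and was not used here.

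Acetylcholine is the transmitter of the motor neurons, which leave the ventral horn to drive skeletal muscle, of preganglionic autonomic neurons and of a small set of spinal interneurons. It is made from choline and acetyl-CoA in the nerve ending, loaded into vesicles, released, and cut in the synaptic cleft, after which choline is taken up again. Nicotinic receptors are ion channels built of several subunits, and muscarinic receptors are coupled to G proteins. In whole tissue, fewer cells of a type and less RNA per cell cannot be told apart.

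*Chat* and *Slc18a3* share a locus on chromosome 14 of mm10 (GRCm38), both on the minus strand. *Chat*, the gene of choline acetyltransferase, spans 32408203 to 32465989 in the GENCODE annotation. *Slc18a3*, the gene of the vesicular acetylcholine transporter, lies within it from 32462438 to 32464850 and has 1 exon. Of 8 annotated *Chat* transcripts, 4 start upstream of *Slc18a3* and hold the whole gene in an intron, and the other 4 start downstream of its end. The outermost *Chat* start lies 1139 bp before the *Slc18a3* start. The exons of the genes share 0 bases, but reads of unspliced *Chat* RNA from that intron cannot be told apart from *Slc18a3* reads.

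**Figure D1:**
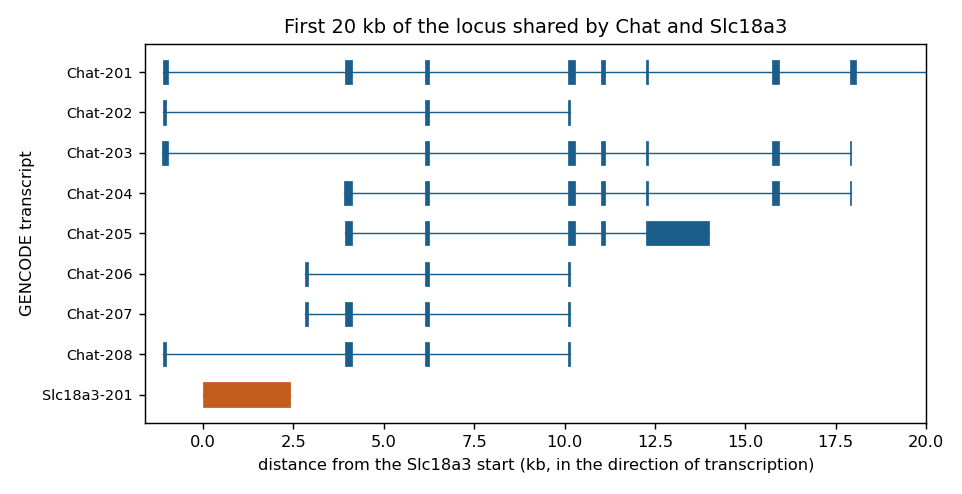
The 8 *Chat* transcripts (blue) and the *Slc18a3* transcript (orange) are drawn over the first 20 kb of the locus, with boxes for exons and the x axis in kb from the *Slc18a3* start. The *Slc18a3* exon lies in an intron of the 4 *Chat* transcripts that start before it.

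The stretches just before the starts of these genes are shown because the pair is measured from a shared locus yet from separate starts. Each was taken from the RefSeq promoter table of GRCm38.p6, 5′ to 3′ on the minus strand, without bases that a protein-coding transcript of GENCODE covers. The *Chat* stretch holds 170 bases at chr14:32465990-32466159 and the *Slc18a3* stretch 250 bases at chr14:32464851-32465100. Capitals mark E-boxes (CANNTG, which reads alike on both strands).

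Chat: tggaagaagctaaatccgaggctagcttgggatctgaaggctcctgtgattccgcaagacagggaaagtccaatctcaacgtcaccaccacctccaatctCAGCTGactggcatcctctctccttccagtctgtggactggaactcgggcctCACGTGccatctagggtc

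Slc18a3: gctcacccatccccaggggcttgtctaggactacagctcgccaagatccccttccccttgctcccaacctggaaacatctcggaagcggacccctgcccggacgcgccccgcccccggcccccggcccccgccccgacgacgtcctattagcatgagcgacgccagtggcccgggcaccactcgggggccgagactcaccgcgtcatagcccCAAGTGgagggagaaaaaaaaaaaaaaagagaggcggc

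The *Chat* stretch held 2 E-boxes and the *Slc18a3* stretch 1. Over the full window of 250 bases, *Chat* had 8 CpG dinucleotides at a GC content of 54.8%, and *Slc18a3* 21 at a GC content of 66.0%. For *Chat*, the printed 170 bases held 5 of these CpG dinucleotides. The rest of its window lies past the GENCODE start, in bases that a protein-coding transcript covers. An E-box was found in 66.2% of the 32851 windows of 250 bases before a start in the same table, where the median GC content was 52.4% and the median number of CpG dinucleotides 6. Over the same 250 bases, *Slc18a3* held 2 GC boxes (GGGCGG on either strand) and *Chat* 0, against 32.7% of all windows with at least 1. The left arm of the RE1 element (TTCAGCACC on either strand), bound by the repressor REST, was found in 0 of the 10 windows of these genes and in 0.301% of all windows. At that share a count of 0 in 10 windows is likely for any genes, and binding of REST was not tested. A TATA box (TATAAA on either strand) was found only in the window of *Slc5a7* among the 10, and in 12.4% of all windows.

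All 10 genes were measured well above the low end of the table. Their base means ran from 255.8 for *Chrm3* to 5193 for *Ache*, with a median of 952.5, where the median over the 20973 genes above 0 was 247.1. Levels of different genes were compared per kb, dividing the base mean by the length of the longest annotated mRNA. On that scale the 10 genes ran from 59.0 to 2375 normalized counts per kb, a 40.3-fold range, with a median of 297.1 against 88.6 for the 20358 genes above 0 that had a length. The median percentile of the 10 genes among these was 73.8. Since the 10 were chosen with earlier results of these data known, their place among all genes may reflect that choice. *Ache* was the highest and *Chrm3* the lowest of the 10 by base mean and per kb of each length tried. Since no spread between mice was available, it cannot be said which neighbours in this order differ beyond their error.

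**Figure D2:**
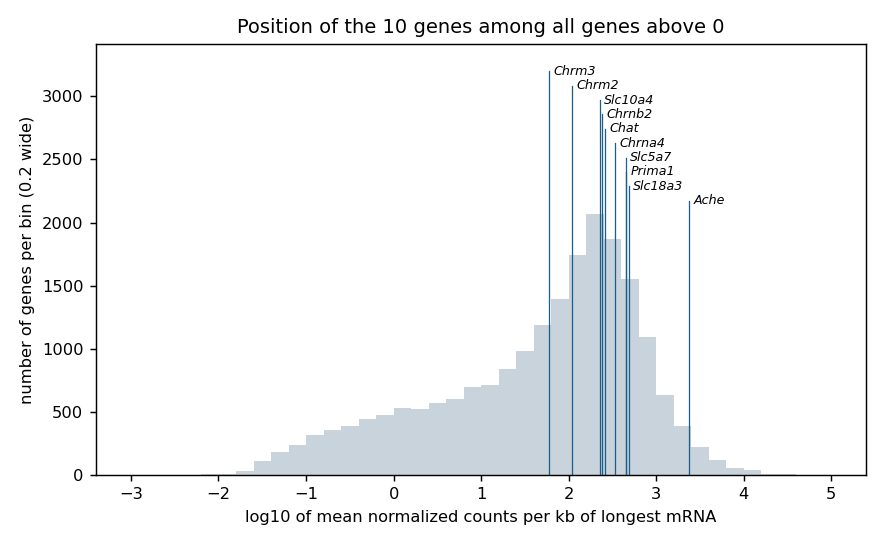
The histogram shows the log10 of normalized counts per kb of longest mRNA for the 20358 genes above 0 with a length, and each vertical line marks a cholinergic gene. *Ache* stands at percentile 97.6 and *Chrm3* at percentile 44.2.

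Of the presynaptic genes, *Slc18a3*, whose protein moves acetylcholine into vesicles, had a base mean of 1170 and a level of 484.8 normalized counts per kb, at percentile 83.5. *Slc5a7* encodes the high-affinity choline transporter, which returns choline to the nerve ending, and lies on chromosome 17 from 54273590 to 54299034. It had a base mean of 2316 and a level of 447.1 normalized counts per kb. *Chat*, the enzyme that makes acetylcholine, had a base mean of 735.3 and a level of 257.3 normalized counts per kb, at percentile 71.1. *Slc10a4*, on chromosome 5 from 73006883 to 73012955, encodes an orphan carrier found on cholinergic and monoaminergic vesicles. It had a base mean of 479.6 and a level of 227.7 normalized counts per kb. The 4 levels thus lay between 227.7 and 484.8 per kb of longest mRNA, and between 365.8 and 1331 per kb of coding length.

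Within the shared locus, *Chat* was measured at 0.531 times the level of *Slc18a3* per kb of longest mRNA. The ratio stayed below 1 on each scale, at 0.516 per kb of coding length, 0.322 per kb of all exons and 0.629 without a length. *Slc10a4* was at 0.470 times the level of *Slc18a3*. The order of *Slc5a7* and *Slc18a3* depended on the length used, with a ratio of 0.922 per kb of longest mRNA and of 1.81 per kb of coding length. Only 33.6% of the longest *Slc5a7* mRNA is coding, against 65.9% for *Slc18a3*.

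**Figure D3:**
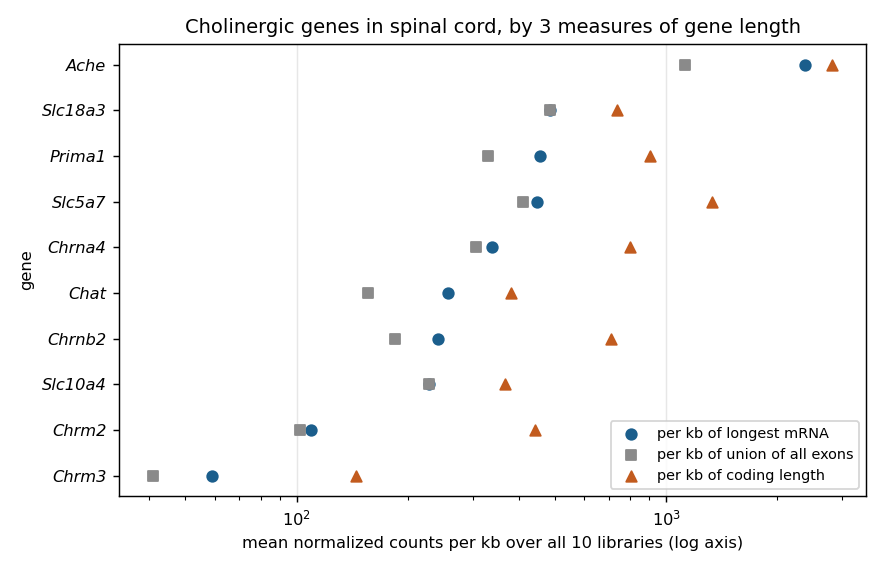
Normalized counts per kb (log axis) of the 10 genes are plotted for 3 measures of gene length, as the authors' mean over all 10 libraries. *Ache* is the highest and *Chrm3* the lowest for each measure, while *Slc5a7* moves from 447.1 per kb of longest mRNA to 1331 per kb of coding length.

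The genes of acetylcholine breakdown had the largest summed level of the 4 roles, through *Ache*. *Ache* encodes acetylcholinesterase and lies on chromosome 5 from 137287519 to 137294466. Its base mean was 5193 and its level 2375 normalized counts per kb, which was 9.23 times that of *Chat*. On the other scales this ratio was lower, at 7.42 per kb of coding length, 7.18 per kb of all exons and 7.06 by base mean. *Prima1* encodes the proline-rich anchor that holds acetylcholinesterase in the membrane of neurons, and lies on chromosome 12 from 103196908 to 103242150. Its base mean was only 413.9, the second lowest of the 10, but its longest mRNA is 909 bases long, and per kb it stood at 455.3, the third highest. *Ache* was 5.22 times as abundant as *Prima1* per kb of longest mRNA and 3.13 times per kb of coding length. Together the breakdown genes made up 56.7% of the summed level of the 10 genes per kb of longest mRNA, the presynaptic genes 28.4%, the nicotinic genes 11.6% and the muscarinic genes 3.37%. Per kb of coding length these shares were 43.1%, 32.6%, 17.5% and 6.81%, and by base mean 39.3%, 32.9%, 21.6% and 6.13%.

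*Ache* is also known from muscle and blood cells. The skeletal muscle markers *Acta1*, *Ckm* and *Myh4* were listed at 173.7, 39.2 and 33.8 normalized counts per kb. Of the blood markers, *Alas2* was at 67.4 and the globin genes *Hba-a1* and *Hbb-bs* were listed at 0, a value that can also mark genes whose reads could not be placed. The part of these cells in the level of *Ache* was not tested.

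Of the receptor genes among the 10, the nicotinic subunits *Chrna4* and *Chrnb2*, which form the main heteromeric receptor of the brain, had nearly equal base means of 1539 and 1547. *Chrna4* lies on chromosome 2 from 181018380 to 181043546 and stood at 337.0 normalized counts per kb. *Chrnb2*, on chromosome 3 from 89746195 to 89764632, stood at 241.7 normalized counts per kb. *Chrna4* was thus at 1.39 times the level of *Chrnb2* per kb of longest mRNA, at 1.13 times per kb of coding length and at 0.995 times by base mean. The exons of *Chrnb2* share 1365 bases, or 16.3% of them, with exons of *Adar* on the other strand, a gene with a base mean of 5923. The libraries were made with a stranded kit, but the strand setting of the counting is not given in the sources used here, and counted without strand the reads of that stretch cannot be told apart. Per kb of all exons, *Chrnb2* stood at 184.6 normalized counts. With the shared bases left out of that length, an alternative added after the data were seen, *Chrnb2* stood at 220.5 normalized counts per kb of exons. *Chrna4*, whose exons share no bases with another gene, stood at 306.4. Only the length was changed, so any reads counted from the shared stretch remain in the value of *Chrnb2*.

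The muscarinic genes had the lowest levels of the 10 per kb of longest mRNA and of all exons, but *Chrm2* ranked number 7 by base mean and per kb of coding length. *Chrm2* encodes the M2 receptor, an inhibitory receptor found on cholinergic endings and motor neurons, and lies on chromosome 6 from 36388084 to 36528414. Its base mean was 619.1 and its level 109.1 normalized counts per kb, at percentile 53.5. *Chrm3*, on chromosome 13 from 9875486 to 10360847, encodes the M3 receptor, which raises calcium in its target cells. Its base mean was 255.8 and its level 59.0 normalized counts per kb, below the median of 88.6 over all genes with a length. *Chrm2* was at 1.85 times the level of *Chrm3* per kb of longest mRNA and at 3.06 times per kb of coding length. The exons of *Chrm2* share 142 bases with an antisense noncoding gene and those of *Ache* 98 bases, or 2.35% and 2.12% of each.

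The other genes of each family were listed to place the 10 genes. All genes of the receptor families are cholinergic, and the 10 were chosen with earlier results of these data known. A high rank within such a family may therefore reflect that choice. Among 16 nicotinic subunit genes, *Chrna4* ranked number 1 and *Chrnb2* number 2, with 40.3% and 28.9% of the summed level per kb. *Chrna7*, the subunit of the homomeric neuronal receptor, came next at 143.6 normalized counts per kb. These ranks were the same per kb of coding length and of all exons. The other 13 nicotinic genes lay at 33.4 normalized counts per kb or lower, down to 0.0498 for *Chrna9*, a subunit known from the inner ear. Of the 14 nicotinic genes outside the 10, 8 had a base mean of at least 10. Over all listed genes with a length, this held for 15596 of 24310. Among 5 muscarinic genes, *Chrm2* ranked number 1 with 46.0% of the summed level and *Chrm3* number 2 with 24.9%. *Chrm4* followed at 42.9 and *Chrm1*, the main muscarinic gene of the cortex, was the lowest at 4.55 normalized counts per kb. Per kb of all exons, *Chrm3* fell to number 3, behind *Chrm4*. Per kb of coding length, *Chrm2* had 65.8% of the summed level, *Chrm3* 21.5% and *Chrm4* 6.40%. By base mean, *Chrm3* was at 255.8 and *Chrm4* at 61.8. The order of *Chrm3* and *Chrm4* thus depended on the length used.

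*Slc18a3*, *Chat* and *Slc5a7* lay below the leading GABA, glycine or glutamate genes of their families and above the monoamine genes. Among 7 vesicular transporters, *Slc18a3* ranked number 3 with 13.8% of the summed level, behind *Slc32a1*, the vesicular transporter of GABA and glycine, at 1524 normalized counts per kb, and *Slc17a6*, a vesicular glutamate transporter, at 1270. These were 3.14 and 2.62 times the level of *Slc18a3*. Per kb of coding length the order of *Slc32a1* and *Slc17a6* turned round, at 3.68 and 4.09 times *Slc18a3*. The lowest, the monoamine transporter *Slc18a1*, was at 9.86 normalized counts per kb. Among 8 synthesis enzymes, *Chat* ranked number 3 with 10.7%, and the GABA-making enzyme *Gad1* was at 5.07 times its level, while *Th*, the enzyme of catecholamine synthesis, was at 61.5 and *Dbh*, the lowest, at 17.7 normalized counts per kb. Of the uptake transporters, *Slc5a7* lay below the glycine transporters *Slc6a9* and *Slc6a5*, at 2280 and 612.6 normalized counts per kb, and above the dopamine transporter *Slc6a3* at 1.42. The ranks of *Slc18a3* and *Chat* were the same per kb of coding length and of all exons. The esterase group holds no gene of another transmitter. In it *Ache* was at 45.6 times the level of *Bche*, the gene of butyrylcholinesterase, and 15.8 times per kb of coding length. *Prima1* stood above *Colq*, the collagen tail that anchors the esterase at the muscle endplate, with 455.3 against 44.5 normalized counts per kb.

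**Figure D4:**
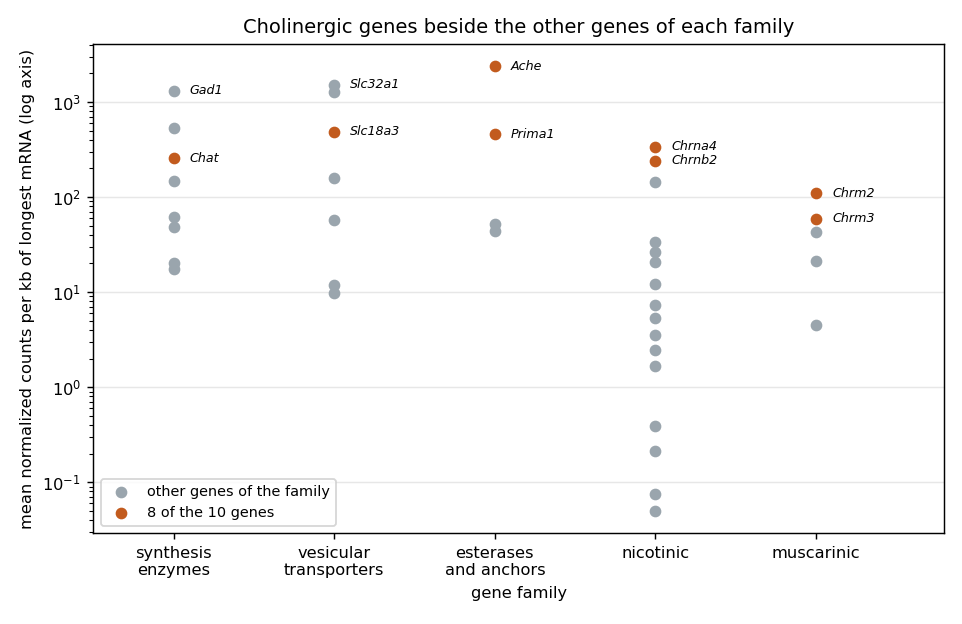
Normalized counts per kb of longest mRNA (log axis) are shown for 5 gene families, with 8 of the 10 genes in orange (*Slc5a7* and *Slc10a4* are not drawn) and the other genes in grey. The orange genes rank highest in the esterase and receptor families, whose grey genes are cholinergic too. They rank number 3 among the synthesis enzymes and vesicular transporters.

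Genes that supply or shape cholinergic signalling spanned a wide range. Of 12 genes of choline transport and acetyl-CoA supply, 10 had a base mean of at least 10. The share over all listed genes with a length was 15596 of 24310. The median of all 12 was 394.6 normalized counts per kb of longest mRNA. The highest was *Acly*, which makes cytosolic acetyl-CoA in all cells, at 2675, and the lowest *Slc44a4*, a choline transporter-like gene, at 0.296. All 9 nicotinic receptor chaperones and prototoxins had a base mean of at least 10. *Lynx1*, whose protein binds nicotinic receptors, was the highest of them at 2959 normalized counts per kb, above every one of the 10 genes, and *Rapsn*, which clusters receptors at the muscle endplate, the lowest at 14.3. Of the transcription factor genes of spinal cholinergic neurons, the motor neuron gene *Isl2* was the highest per kb of longest mRNA, at 25.3, and *Lhx4* the highest per kb of coding length, at 58.0, both below *Chrm3* on the same scale.

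Markers of the labelled tissue were present in the pooled libraries. Hox genes of the thoracic and lumbar cord ran from 67.9 for *Hoxc9* to 726.9 normalized counts per kb for *Hoxc8*, and 6 of 6 had a base mean of at least 10. Not all of them are particular to the lumbar region. The highest of the forebrain markers was *Neurod6* at 36.7. Markers of sensory ganglia lay between 2.80 for *Mrgprd* and 23.6 for *Avil*. Neuronal markers ran from 1090 for *Syt1* to 27907 for *Snap25*, oligodendrocyte markers from 3138 for *Mog* to 66628 for *Mbp* and astrocyte markers from 3179 for *Aqp4* to 21257 for *Gfap*. The microglial genes lay between 248.7 for *P2ry12* and 647.0 for *Csf1r*.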

How the data were processed

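RNA was sequenced from the spinal cord of 5 WT and 5 SOD1G93A females, grouped by the genotype in the labels. According to the methods and the submitters' processing notes, the authors filtered reads with Fastp, aligned them to mm10 with HISAT2 (2.1.0), summarised the uniquely placed reads per gene by featureCounts (2.0.2) and compared the groups with DESeq2. A stranded TruSeq kit was used, but the gene annotation and the strand setting of the counting are not given in the sources used here. The only value used is the base mean, a signal averaged by the authors over all 10 libraries from counts divided by size factors. The deposited table also holds 5 columns of the authors' genotype comparison (log2 fold change, standard error, Wald statistic, p-value and adjusted p-value), which were not used, so no test, replicate error or depth per library is given. The base means of all genes sum to 22158933, the mean normalized total of a library.

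Symbols were matched to GENCODE M21 (GRCm38, the build that mm10 denotes), and 24310 of 25232 (96.3%) found a unique gene. GENCODE replaced RefSeq for lengths, since the RefSeq table at hand gives the genomic span. The main length was the longest protein-coding transcript, and the alternatives were all exons, the longest coding sequence, no length, and other sets of genes for the percentiles. Interval code was tested on simulated data. Named genes were the 10 genes, the highest and lowest of each context list, genes listed at 0 and partner genes. *Slc17a6*, *Th*, *Slc6a9*, *Slc6a5*, *Ckm*, *Lhx4* and *Adar* fall outside that rule and were chosen after their values were seen. A few list extremes are not reported here. Members and lists were chosen with earlier results of these data known. Values were computed in Python 3.11.15 and drawn in matplotlib 3.10.9, with pandas 2.3.3 for tables and numpy 2.4.6.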

Additional observations from a re-analysis of the deposited data

How the results depend on the processing

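No paired analysis was possible because the deposited table holds no values of single libraries, and for the same reason leaving out a replicate, another pseudocount and a filter on values per library were not run. Of the partner ratios, the order turned round for *Slc5a7* over *Slc18a3* (log2 ratio −0.12 per kb of longest mRNA, 0.86 per kb of coding length and 0.99 without a length, while it was −0.24 per kb of all exons) and for *Chrna4* over *Chrnb2* (0.48 per kb of longest mRNA and −0.0075 without a length, while it was 0.73 per kb of all exons, 0.17 per kb of coding length and 0.47 per kb of exons not shared with another gene). The direction of the other ratios was the same on each scale. *Chat* over *Slc18a3* gave a log2 ratio of −1.63 per kb of all exons, −0.95 per kb of coding length and −0.67 without a length. *Slc10a4* over *Slc18a3* gave −1.01 per kb of coding length and −1.29 without a length. *Ache* over *Prima1* gave 1.77, 1.64 and 3.65 for all exons, coding length and no length, and 1.80 for exons not shared with another gene. *Chrm2* over *Chrm3* gave 1.32, 1.61 and 1.27, and 1.36 for exons not shared. The median percentile of the 10 genes was 65.9 when the other genes needed a base mean of 10 or more and 78.1 among all listed genes with a length. With that minimum the percentile of each of the 10 genes was lower, with shifts of −16.7 to −0.718 points, and without a length it was higher for 5 genes and lower for 5. The mean over all libraries sets the limit of each value, since its error between mice is unknown.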
